A study of Drosophila melanogaster with 20 samples.

Results

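Fragments of 10 neuronal genes (elav, fne, futsch, Appl, nSyb, Syt1, brp, cpx, para and Sh) were followed through small RNA libraries of sorted Drosophila melanogaster embryo cells. The 10 genes are a chosen list of well-known neuronal genes, not picked by a threshold but chosen with earlier results of these data known. Counts of calls among them are therefore a description and no independent support. The genes were found by their FlyBase symbols among 17263 rows, after miRNA hairpins and rows sharing exon bases with a hairpin were left out. All 10 had a row and passed the filter on low counts. They were taken as an early class of RNA-binding and cytoskeletal genes (elav, fne and futsch), a late class of synaptic and channel genes (nSyb, Syt1, brp, cpx, para and Sh), and Appl, a membrane protein kept apart from both classes. The reads are short pieces of longer RNAs caught in a small RNA library, and their counts are not mRNA levels.

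The study set sorted neurons, glia and neuroblasts against the remaining embryo cells at an early and a late stage of neurogenesis. Dissociated cells were fixed with formaldehyde, stained for a marker protein and separated by flow cytometry, and the RNA was recovered after the cross-links had been reversed. The 20 libraries formed 10 groups of 2, which the design text calls biological duplicates without naming separate collections. The p-values measure the spread between duplicates, estimated jointly over all 10 groups. The groups were elav-positive and elav-negative cells at 18-22 h and at 6-8 h after egg laying, pros-positive and pros-negative cells at 6-8 h, and repo-positive with repo-negative cells of the same stages as the elav sort. No group had a treatment, and strain and genotype are not given in the sources used here. Each positive fraction was selected by staining for Elav, Prospero or Repo and is enriched rather than pure. Each negative fraction held every other cell of the embryo, so repo-negative and pros-negative cells include neurons.

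In the fly embryo, neuroblasts divide to give ganglion mother cells, whose daughters become neurons or glia. Young neurons first make RNA-binding proteins and cytoskeleton for growing axons, and the machinery of synaptic release and the ion channels of the action potential are known to build up as circuits mature. Elav is a nuclear RNA-binding protein used as the standard marker of neurons, and fne encodes its relative Found in neurons. The Futsch protein is a microtubule-associated protein of axons and synapses, and Appl is the fly relative of the amyloid precursor protein. The product of nSyb is the vesicle SNARE of neurotransmitter release, Syt1 encodes the calcium sensor of release, cpx encodes complexin, which binds the assembled SNAREs, and brp encodes the Bruchpilot scaffold of the active zone. The voltage-gated sodium channel is encoded by para, and Sh encodes the Shaker potassium channel. Elav is also known to be made briefly in embryonic glia and, at low level, in neuroblasts.

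The values were read from exons. In the coordinates of the files (BDGP6), elav lay on chromosome X at 509235 to 523226 (minus strand), fne on X at 12917477 to 12950417 (plus), futsch on X at 1409069 to 1453686 (plus) and Appl on X at 530501 to 579044 (plus). The late genes nSyb (3L, 1630348 to 1637752, minus), Syt1 (2L, 2772327 to 2799979, minus), brp (2R, 9503765 to 9541565, plus) and cpx (3R, 4280221 to 4304604, plus) lay on the autosomes. Both channel genes were on X, para at 16455027 to 16533096 (minus) and Sh at 17924307 to 18063247 (minus). Merged exon length ran from 4072 bp for nSyb to 23308 bp for futsch. Part of the futsch exons was shared with Gr2a on the same strand, so reads there cannot be told apart by gene.

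A library held 6863042 to 24501421 counts in total and 3994804 to 13402457 counts on non-miRNA rows, of which 9.02 to 20.7% fell on protein-coding rows. The 10 genes together had between 282.8 counts, in elav-negative 6-8 h replicate 1, and 18679 counts, in elav-positive 18-22 h replicate 1. Levels below are the counts of a gene as CPM, a library's counts brought to one common size over its non-miRNA rows, scaled by TMM factors (a trimmed mean of ratios between libraries) of 0.637 to 1.73. Both second libraries of the elav sort at 6-8 h stood apart by their miRNA counts, 70156 in elav-positive and 199947 in elav-negative replicate 2, where every other library had at least 828463. Elav-positive 6-8 h replicate 2 also had a protein-coding share of 20.7% against 11.01% in replicate 1, and the largest TMM factor. All 4 pros libraries had been mapped in another directory than the rest, per the file headers, so a difference between them and other libraries cannot be told apart from a difference in processing.

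Across the 10 groups, every gene except elav was highest in elav-positive 18-22 h cells, and elav was highest in elav-positive 6-8 h cells. From the highest to the lowest group mean, elav spanned 23.1-fold (559 CPM in elav-positive 6-8 h cells and 24.2 CPM in pros-negative cells), and nSyb spanned 417-fold (103 CPM in elav-positive 18-22 h and 0.246 CPM in elav-negative 6-8 h cells). For elav the order of group means was elav-positive 6-8 h (596 and 522 CPM), elav-positive 18-22 h (271 and 283), pros-positive (196 and 255), repo-positive 6-8 h (97.3 and 99.8), repo-negative 18-22 h (78.2 and 88.9), repo-negative 6-8 h (67.2 and 86.6), repo-positive 18-22 h (62.8 and 87.3), elav-negative 6-8 h (48.3 and 49.9), elav-negative 18-22 h (18.2 and 35.8) and pros-negative (25.1 and 23.3). The libraries of neighbouring groups in this order overlapped in 3 of 9 neighbour pairs, those among the repo-negative and repo-positive 18-22 h and repo-negative 6-8 h groups and the last pair. In the other 9 genes, 4 or 5 of the 9 neighbour pairs overlapped, while the highest group stood clear of the next in each of them.

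**Figure D1:**
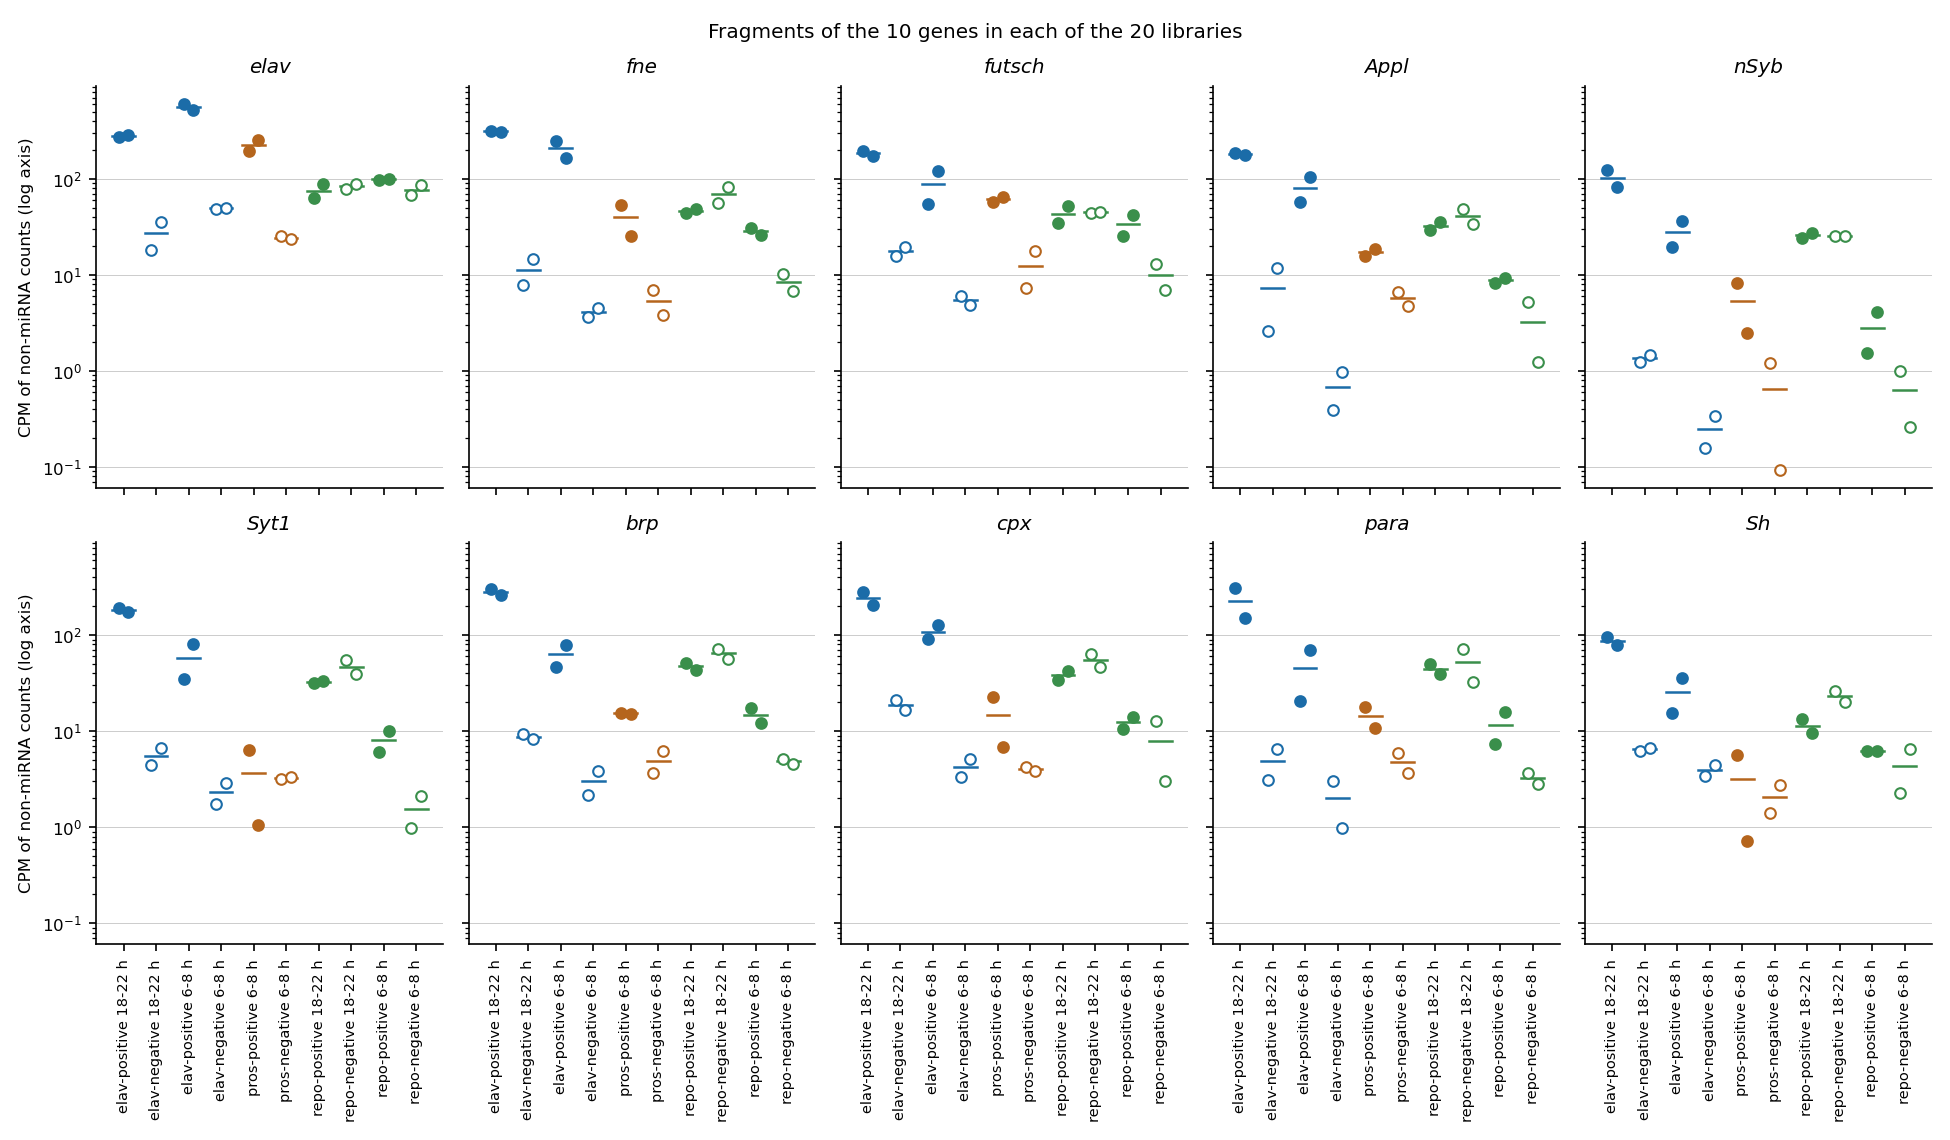
Fragments of each of the 10 genes in all 20 libraries, in CPM of the non-miRNA counts on a log axis, by group. Filled points are marker-positive and open points marker-negative libraries (blue elav, brown pros, green repo sorts), and a bar marks the mean of 2 libraries. Elav-positive cells lie highest in every panel, and the repo-positive and repo-negative points of 18-22 h lie close together.

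In the elav sort at 18-22 h, fragments of all 10 genes were higher in elav-positive than in elav-negative cells by edgeR's quasi-likelihood test (Benjamini-Hochberg adjusted p under 0.05), where 8.83% of the 11726 rows tested passed in that direction and 5.24% in the other. The median log2 fold change was 4.72 over the 10 genes and -0.19 over all rows, and in no gene did the libraries of the fractions overlap. How many of all rows showed no overlap was not counted, so lack of overlap is only a description, here and below. As the fractions are pools of sorted cells, fewer cells of a type and less RNA per cell cannot be told apart. The gene elav, whose protein set the gate, had 271 and 283 CPM in elav-positive cells against 18.2 and 35.8 CPM in elav-negative cells (log2 fold change 3.36 ± 0.35 SE, adjusted p = 2.97e-06), which checks the labels. Its relative fne had 314 and 307 CPM in elav-positive against 7.83 and 14.8 CPM in elav-negative cells (4.79 ± 0.46, adjusted p = 1.76e-06). For futsch the values were 195 and 172 CPM in elav-positive against 15.6 and 19.7 CPM in elav-negative cells (3.37 ± 0.46). Fragments of the amyloid precursor relative Appl rose as well, to 186 and 175 CPM in elav-positive against 2.59 and 11.8 CPM in elav-negative cells (4.66 ± 0.60).

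The synaptic and channel genes rose in the same late sort. The vesicle SNARE gene nSyb had the largest change of the 10, with 123 and 82.4 CPM in elav-positive against 1.25 and 1.48 CPM in elav-negative cells (6.26 ± 0.71, adjusted p = 6.74e-06, edgeR). The calcium sensor Syt1 had 192 and 172 CPM in elav-positive against 4.41 and 6.64 CPM in elav-negative cells (5.04 ± 0.61). The active zone gene brp had 299 and 259 CPM in elav-positive against 9.26 and 8.25 CPM in elav-negative cells (4.99 ± 0.40, adjusted p = 3.25e-07), the smallest adjusted p among the 10. In elav-negative cells complexin had the highest level per kilobase after elav. For cpx the values were 283 and 207 CPM in elav-positive against 20.9 and 16.8 CPM in elav-negative cells (3.70 ± 0.54). The sodium channel gene para had 308 and 151 CPM in elav-positive against 3.08 and 6.60 CPM in elav-negative cells (5.59 ± 0.68). For the potassium channel gene Sh the values were 94.6 and 79.3 CPM in elav-positive against 6.27 and 6.64 CPM in elav-negative cells (3.75 ± 0.64, adjusted p = 0.000349). No left-out library and no other setting ended a call in this sort.

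At 6-8 h all 10 genes were likewise higher in elav-positive cells, where 5.38% of all rows tested passed in that direction and 3.6% in the other, with a median log2 fold change of 4.59 over the 10 genes and 0.00 over all rows. For elav, 596 and 522 CPM in elav-positive cells stood against 48.3 and 49.9 CPM in elav-negative cells (3.51 ± 0.35, adjusted p = 2.51e-06, edgeR). For fne the values were 249 and 165 CPM in elav-positive against 3.63 and 4.51 CPM in elav-negative cells (5.65 ± 0.49), and for futsch 55.1 and 119 CPM against 5.99 and 4.83 CPM (4.03 ± 0.49). Appl had the largest change, with 57.5 and 104.5 CPM in elav-positive against 0.388 and 0.979 CPM in elav-negative cells (6.61 ± 0.72, adjusted p = 6.36e-06, edgeR). Its size rests on 1.52 and 7.81 counts in the elav-negative libraries.

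Late genes were also detected in elav-positive cells at 6-8 h, with both libraries below both of 18-22 h in each of the 6. For nSyb the values were 19.3 and 36.1 CPM in elav-positive against 0.156 and 0.336 CPM in elav-negative cells (6.32 ± 0.83). That change rests on 4 rounded counts in the elav-negative libraries against 556 in the elav-positive ones, a ratio of pooled CPM of 89.0 with an exact 95% interval of 34.6 to 328 that covers counting error only. Syt1 had 34.9 and 80.7 CPM in elav-positive against 1.75 and 2.86 CPM in elav-negative cells (4.57 ± 0.63). The active zone and complexin genes had a similar excess, brp with 46.8 and 79.3 CPM against 2.14 and 3.86 CPM (4.34 ± 0.41) and cpx with 91.0 and 127 CPM in elav-positive against 3.36 and 5.13 CPM in elav-negative cells (4.65 ± 0.59). For para, 20.4 and 70.2 CPM in elav-positive stood against 3.06 and 0.982 CPM in elav-negative cells (4.61 ± 0.71). Sh had the smallest change, 15.5 and 35.7 CPM in elav-positive against 3.45 and 4.43 CPM in elav-negative cells (2.67 ± 0.64, adjusted p = 0.00984).

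The elav-positive libraries of 6-8 h differed from each other. Replicate 2, which had the fewest miRNA counts and the highest protein-coding share, was higher than replicate 1 in 8 of the 10 genes, all but elav and fne, by a median ratio of 1.84 and by up to 3.44 for para. The part of those library features in the difference was not tested. Sh lost its call without elav-positive replicate 2 (1.99, adjusted p = 0.13, edgeR), without elav-negative replicate 1 (2.53, adjusted p = 0.083) and without elav-negative replicate 2 (2.84, adjusted p = 0.088). Without both second libraries of this sort 8 of the 10 calls were left, and para (2.76, adjusted p = 0.10) and Sh (2.15, adjusted p = 0.37) did not pass.

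The change between elav-positive and elav-negative cells was then set against itself at the late and the early stage. For the late contrast minus the early contrast, 0 of the 10 genes passed edgeR's test, where 0.35% of all rows passed as higher and 0.793% as lower. A single gene had an unadjusted p under 0.05, Appl (-1.95 ± 0.88, adjusted p = 0.353, edgeR), against 1484 of the 11726 rows tested. The elav-negative 6-8 h libraries held 1.52 and 7.81 counts of Appl. DESeq2 also called 0 of the 10. The differences ran from -1.95 for Appl to 1.07 ± 0.85 for Sh, with standard errors of 0.45 to 0.92. Those of elav (-0.15), futsch (-0.66) and nSyb (-0.057) changed sign when single libraries were left out.

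Other genes of the same pathways rose with the 10 genes in the elav sort. Their lists were also chosen with earlier results of these data known, so the counts are a description. Of 18 genes of vesicle release, 16 passed as higher at 18-22 h and 11 at 6-8 h (median log2 fold change 3.25 and 1.91, edgeR). Syn, which encodes the vesicle phosphoprotein synapsin, had 143 and 130.2 CPM in elav-positive against 1.90 and 4.89 CPM in elav-negative cells at 18-22 h (5.35 ± 0.66). Of 19 genes of voltage-gated channels and their subunits, 14 were higher at 18-22 h and 12 at 6-8 h (medians 3.29 and 2.51). The active zone calcium channel gene cac had 328 and 289.6 CPM in elav-positive against 6.542 and 9.95 CPM in elav-negative cells at 18-22 h (5.22 ± 0.52). Of 12 genes of the axonal cytoskeleton, adhesion and transport, 10 were higher at 18-22 h and 6 at 6-8 h (medians 2.61 and 1.39). The neuronal ankyrin gene Ank2 led that list at 6-8 h, with 497 and 683 CPM in elav-positive against 8.33 and 6.64 CPM in elav-negative cells (6.30 ± 0.38). Among 7 measured neural RNA-binding genes, 5 were higher at each stage (medians 2.35 and 1.30), and bru3, which encodes a Bruno-type RNA-binding protein, had 222 and 200.3 CPM in elav-positive against 10.8 and 18.7 CPM in elav-negative cells at 18-22 h. None of these 4 lists had a lower member at either stage by edgeR, while DESeq2 called 1 channel gene lower at 18-22 h.

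Markers of some other cells moved with this sort. Of 7 muscle genes, 5 were lower in elav-positive cells at 18-22 h, where their summed level was 702 and 637 CPM against 1789 and 1384 CPM in elav-negative cells, and 4 were lower at 6-8 h (109 and 162 CPM against 220.4 and 399 CPM). Of 7 hemocyte genes, 5 and 3 were lower, with sums of 21.1 and 17.0 CPM in elav-positive against 308 and 169.8 CPM in elav-negative cells at 18-22 h. The 10 glial genes had 1 higher and 1 lower member at each stage, with sums of 203 and 155 CPM in elav-positive against 134.5 and 124 CPM in elav-negative cells at 18-22 h. Among 6 epidermal and tracheal genes, 3 were lower at 6-8 h and 0 at 18-22 h (also 0 by DESeq2). The 8 neuroblast genes had 1 higher member at 6-8 h, and 2 higher and 1 lower at 18-22 h. Among 6 peripheral sensory genes, 1 was higher at 6-8 h and 0 at 18-22 h, where DESeq2 called 1 higher. No gene of these lists was at 0 in both libraries of a group. The part of other cell types in the changes of the 10 genes was not tested.

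**Figure D2:**
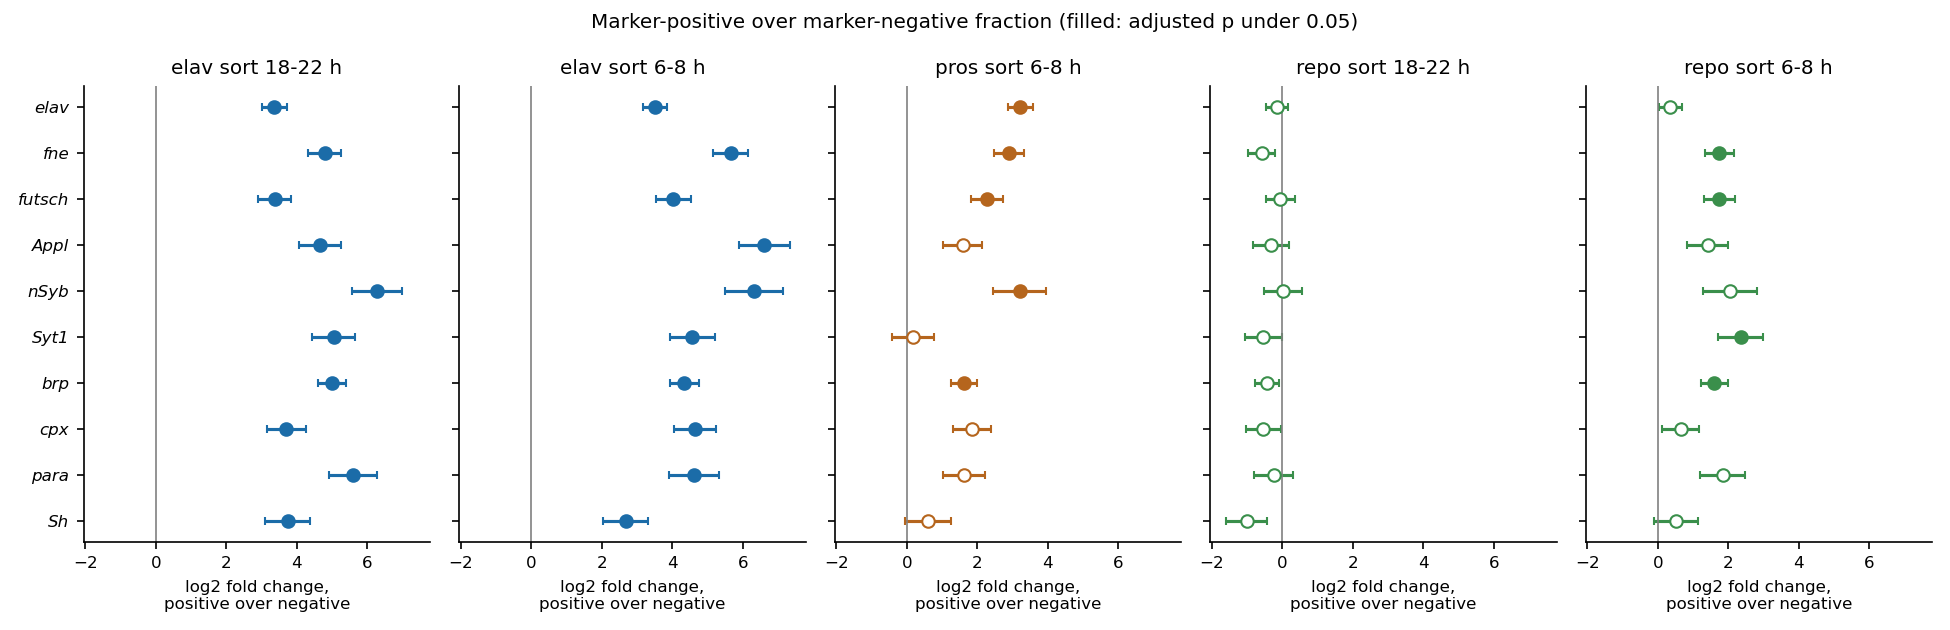
Log2 fold change of each gene between the marker-positive and marker-negative fraction in the 5 sorts, with the standard error of the edgeR fit as bars and filled points for an adjusted p under 0.05. All 10 points are filled in both elav sorts, 5 in the pros sort, 4 in the repo sort of 6-8 h and none in the repo sort of 18-22 h.

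In the pros sort at 6-8 h, the sort the labels call neuroblasts, the calls were fewer than in the elav sort. Fragments of 5 of the 10 genes were higher in pros-positive than in pros-negative cells, where 1.2% of all rows tested passed in that direction and 1.26% as lower. They were all 3 early genes and, of the 6 late genes, nSyb and brp. Unadjusted p was under 0.05 in 8 of the 10 and in 2036 of the 11726 rows tested. For elav, 196 and 255 CPM in pros-positive cells stood against 25.1 and 23.3 CPM in pros-negative cells (3.22 ± 0.35, adjusted p = 2.54e-05, edgeR). For fne the values were 53.6 and 25.4 CPM in pros-positive against 6.92 and 3.80 CPM in pros-negative cells (2.90 ± 0.44, adjusted p = 0.000965). Among the early genes futsch changed least, with 57.3 and 64.7 CPM in pros-positive against 7.24 and 17.7 CPM in pros-negative cells (2.27 ± 0.44, adjusted p = 0.0083). The active zone gene brp had 15.5 and 15.2 CPM in pros-positive against 3.70 and 6.19 CPM in pros-negative cells (1.63 ± 0.37, adjusted p = 0.0235).

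The late genes other than brp were low and uneven between the pros-positive libraries, with replicate 2 below replicate 1 in each of them. For nSyb the values were 8.28 and 2.48 CPM in pros-positive against 1.21 and 0.0933 CPM in pros-negative cells (3.21 ± 0.75, adjusted p = 0.0278, edgeR), from 133 against 8 rounded counts, a ratio of 10.5 with an exact 95% counting interval of 5.15 to 24.7. Complexin and the sodium channel did not pass, cpx at 22.5 and 6.82 CPM in pros-positive against 4.22 and 3.85 CPM in pros-negative cells (1.85 ± 0.54, adjusted p = 0.0739) and para at 18.1 and 10.7 CPM against 5.86 and 3.67 CPM (1.62 ± 0.60, adjusted p = 0.162). For Appl, which did not pass either, 15.8 and 18.4 CPM in pros-positive stood against 6.66 and 4.69 CPM in pros-negative cells (1.59 ± 0.55, adjusted p = 0.13). The libraries of the fractions overlapped for Syt1, with 6.35 and 1.05 CPM in pros-positive against 3.21 and 3.31 CPM in pros-negative cells (0.18 ± 0.59), and for Sh, with 5.64 and 0.716 CPM against 1.42 and 2.73 CPM (0.60 ± 0.66). The sign of Syt1 turned when the total count was the scale (-0.10), and it turned for Syt1 (-1.77) and Sh (-1.59) without pros-positive replicate 1.

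Several of the pros calls ended when a library was left out, which leaves 1 library in its group. Without pros-positive replicate 1, nSyb did not pass (1.9997, adjusted p = 0.13, edgeR). Without pros-positive replicate 2, brp did not pass (1.66, adjusted p = 0.08) and cpx did (2.48, adjusted p = 0.023). Without pros-negative replicate 1, futsch (1.802, adjusted p = 0.13) and brp (1.33, adjusted p = 0.20) did not pass, and without pros-negative replicate 2, nSyb (2.17, adjusted p = 0.26) and brp (2.10, adjusted p = 0.056) did not. When the 2 pros groups were fitted alone, elav was the single call left, where 8 of all 9184 rows passed as higher and 6 as lower. With the total count as the scale nSyb and brp did not pass. Without the low-count filter Appl, cpx and para passed as well, and with DESeq2 cpx did.

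In the same sort 3 of 12 axonal genes were higher in pros-positive cells (Ank2, nrv3 and Nrg) and 2 of 18 vesicle genes (Rab3 and Syx1A, which encode a vesicle-bound GTPase and syntaxin). For Syx1A the values were 20.3 and 36.0 CPM in pros-positive against 7.91 and 10.1 CPM in pros-negative cells (1.64 ± 0.42, adjusted p = 0.042, edgeR). Of the 7 RNA-binding genes 0 passed by edgeR and by DESeq2, and 2 had an unadjusted p under 0.05. Of the 19 channel genes 1 was lower, Ca-alpha1T, with 10.4 and 9.18 CPM in pros-positive against 46.8 and 41.0 CPM in pros-negative cells. Of the 8 neuroblast genes, 7 were higher and their sum was 539 and 619 CPM in pros-positive against 63.0 and 92.1 CPM in pros-negative cells. The glial list had 1 higher member of 10, and its sum was 169 and 113 CPM in pros-positive against 88.5 and 110.9 CPM in pros-negative cells.

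In repo-positive cells, which the labels call glia, neuronal fragments were present at both stages. At 18-22 h, 0 of the 10 genes differed between repo-positive and repo-negative cells by edgeR, where 1.44% of all rows passed as higher and 0.87% as lower. None of the 10 had an unadjusted p under 0.05, against 1322 of the 11726 rows tested, and DESeq2 called 0. The median log2 fold change was -0.38 over the 10 genes and -0.12 over all rows. For fne the values were 43.5 and 48.9 CPM in repo-positive against 56.5 and 82.1 CPM in repo-negative cells (-0.58 ± 0.39, adjusted p = 0.663). For nSyb they were 24.4 and 27.2 CPM against 25.5 and 25.1 CPM (0.03 ± 0.54), so the repo-negative libraries lay within the range of the repo-positive ones. The largest difference was that of Sh, 13.3 and 9.53 CPM in repo-positive against 26.3 and 20.0 CPM in repo-negative cells (-1.01 ± 0.58, adjusted p = 0.578), without overlap of the libraries. The libraries also did not overlap for fne, Syt1, brp and cpx, each lower in repo-positive cells. Of the 10 fold changes 1 was positive, that of nSyb. Among changes this close to 0, some signs were not stable. That of nSyb turned without repo-positive replicate 2 (-0.054), and those of elav (0.047) and futsch (0.19) without repo-positive replicate 1. That of para turned without repo-negative replicate 1 (0.43). The signs of fne, Appl, Syt1, brp, cpx and Sh held in every fit.

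At 6-8 h the 10 genes all had a higher mean in repo-positive than in repo-negative cells, and 4 of them passed, where 2.38% of all rows passed as higher and 0.981% as lower. The median log2 fold change was 1.68 over the 10 genes and 0.00 over all rows. The 4 genes were fne, with 30.5 and 26.2 CPM in repo-positive against 10.2 and 6.72 CPM in repo-negative cells (1.75 ± 0.42, adjusted p = 0.0199, edgeR), and futsch, with 25.4 and 41.8 CPM against 12.98 and 6.99 CPM (1.74 ± 0.44, adjusted p = 0.0307). The other calls were synaptic genes. Syt1 had 6.03 and 10.2 CPM in repo-positive against 0.989 and 2.11 CPM in repo-negative cells (2.35 ± 0.64, adjusted p = 0.0428), and brp had 17.5 and 12.2 CPM against 5.13 and 4.55 CPM (1.61 ± 0.38, adjusted p = 0.0178). For elav the values were 97.3 and 99.8 CPM in repo-positive against 67.2 and 86.6 CPM in repo-negative cells (0.36 ± 0.32, adjusted p = 0.644). Without overlap of the libraries but not passing were elav, Appl (1.41 ± 0.58), nSyb (2.04 ± 0.77) and para (1.84 ± 0.63), while the libraries overlapped for cpx (0.65 ± 0.52) and Sh (0.52 ± 0.62). The nSyb value rests on 46 against 9 rounded counts, a ratio of 4.28 with an exact 95% counting interval of 2.07 to 9.94.

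None of the 4 calls of the early repo sort held without either repo-negative library, when the adjusted p of fne was 0.091 without replicate 1 and 0.26 without replicate 2. Without repo-positive replicate 1, fne (1.63, adjusted p = 0.073) and brp (1.33, adjusted p = 0.12) did not pass, and without repo-positive replicate 2, brp alone did. With the total count as the scale futsch and brp did not pass, and with only the groups compared fitted Syt1 and brp did not. In addition, Sh turned to -0.036 without repo-negative replicate 1 and cpx to -0.037 without repo-negative replicate 2. The difference between the sorts was tested after both had been seen: the late contrast minus the early contrast was negative in all 10 genes (median -1.90, and -0.09 over all rows), from -0.51 ± 0.45 for elav to -2.88 ± 0.82 for Syt1. By edgeR 0 of the 10 passed, where 0.0768% of all rows passed as lower and 0.00853% as higher. Unadjusted p was under 0.05 in 7 of them and in 997 of the 11726 rows tested, and DESeq2 called 3 lower (fne, Syt1 and brp). The count of 0 depended on the setting: by edgeR fne and Syt1 passed as lower without the low-count filter and with only these groups fitted, and fne (adjusted p = 0.021) and brp (adjusted p = 0.038) with the replicate number as a block. Without both second elav libraries of 6-8 h brp alone passed (-2.09, adjusted p = 0.041).

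Glial genes followed the repo sort. At 18-22 h 7 of 10 were higher, with sums of 1368 and 971 CPM in repo-positive against 128.9 and 110.3 CPM in repo-negative cells, and at 6-8 h 9 of 10 were higher, with sums of 652 and 919 CPM against 120.9 and 140.2 CPM. Of the 12 axonal genes 4 were higher at 18-22 h and 6 at 6-8 h, among them Nrg and, at the late stage, Nrx-IV and Fas2, adhesion molecules that glia are also known to make. Nrg had 359 and 306 CPM in repo-positive against 85.4 and 86.3 CPM in repo-negative ones at the late stage (1.95 ± 0.36, adjusted p = 0.0036, edgeR). Of the vesicle release genes 1 of 18 was higher at 6-8 h (Rop), of the channel genes 1 of 19 (eag) and of the RNA-binding genes 1 of 7. At 18-22 h no vesicle gene passed by edgeR, at an unadjusted p under 0.05 or by DESeq2, 1 channel gene was lower (Ca-alpha1T), and no RNA-binding gene passed by edgeR or DESeq2, with 1 at an unadjusted p under 0.05. The part of other cells in the repo fractions, glial or neuronal, was not tested.

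Stages were compared within a fraction. In elav-positive cells brp and para rose at 18-22 h, 2 of the 10 genes, where 1.83% of all rows passed as higher and 1.19% as lower. Unadjusted p was under 0.05 in 9 of the 10 and in 1900 of the 11726 rows tested. For brp, 299 and 259 CPM at 18-22 h stood against 46.8 and 79.3 CPM at 6-8 h (2.15 ± 0.35, adjusted p = 0.00242, edgeR). For para the values were 308 and 151 CPM at 18-22 h against 20.4 and 70.2 CPM at 6-8 h (2.33 ± 0.57, adjusted p = 0.033). The para call ended without elav-positive 6-8 h replicate 1 (1.73, adjusted p = 0.18) and without elav-positive 18-22 h replicate 1 (1.75, adjusted p = 0.31), and with only the groups compared fitted (2.22, adjusted p = 0.083). The other late genes had changes of 1.17 ± 0.49 (cpx), 1.65 ± 0.52 (Syt1), 1.75 ± 0.58 (Sh) and 1.88 ± 0.56 (nSyb), with adjusted p of 0.0705 to 0.234, and no overlap of the libraries. DESeq2 called nSyb, Syt1 and Sh higher as well, 5 genes in that direction, and so did edgeR without the low-count filter.

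The gene elav ran the other way. It had 271 and 283 CPM in elav-positive cells at 18-22 h against 596 and 522 CPM at 6-8 h (-1.01 ± 0.32, adjusted p = 0.095, edgeR), and was the only one of the 10 with both late libraries below both early ones in that fraction. With the total count as the scale it passed as lower (-1.51, adjusted p = 0.027), while brp (1.54, adjusted p = 0.082) and para (1.67, adjusted p = 0.15) did not pass. That scale moved the median change of all rows by -0.49 in this comparison. DESeq2 also called elav lower (-0.96, adjusted p = 0.036). For the other early genes, fne had 0.58 ± 0.39 and futsch 1.07 ± 0.42, and Appl had 1.16 ± 0.51, none of which passed.

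Elav-negative cells had 5 of the 10 genes higher at 18-22 h, where 6.77% of all rows passed as higher and 5.43% as lower. They were fne, futsch, Appl, brp and cpx. For cpx, 20.9 and 16.8 CPM at 18-22 h stood against 3.36 and 5.13 CPM at 6-8 h (2.12 ± 0.55, adjusted p = 0.0156, edgeR). Appl had 2.59 and 11.8 CPM at 18-22 h against 0.388 and 0.979 CPM at 6-8 h (3.11 ± 0.71, adjusted p = 0.00694, edgeR). Its 6-8 h libraries held 1.52 and 7.81 counts. For elav the values were 18.2 and 35.8 CPM at 18-22 h against 48.3 and 49.9 CPM at 6-8 h (-0.86 ± 0.33, adjusted p = 0.0887). Leaving out a library leaves 1 in its group, so only fold changes are given for those fits. Without elav-negative 6-8 h replicate 1 and without replicate 2, the library low in miRNA counts, Appl had 2.81 and 3.78. In the same 2 fits cpx had 1.86 and 2.51, futsch 1.84 and 1.60, and fne 1.30 and 1.66. Without elav-negative 18-22 h replicate 2, Appl had 1.71 and fne 0.96. The change of elav was -1.39 without elav-negative 18-22 h replicate 2. Of the 5 calls, Appl and cpx were left with the total count as the scale, and futsch, Appl and cpx with only the groups compared fitted.

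In repo-positive cells nSyb, Syt1 and brp rose at 18-22 h, 3 of the 10 genes, where 1.85% of all rows passed as higher and as many as lower. For nSyb, 24.4 and 27.2 CPM at 18-22 h stood against 1.52 and 4.07 CPM at 6-8 h (3.19 ± 0.62, adjusted p = 0.00646, edgeR). Syt1 had 31.6 and 33.5 CPM at 18-22 h against 6.03 and 10.2 CPM at 6-8 h (2.002 ± 0.55, adjusted p = 0.0449), and brp had 51.4 and 43.8 CPM against 17.5 and 12.2 CPM (1.68 ± 0.35, adjusted p = 0.0114). Leaving out any of the 4 libraries ended the Syt1 call (1.68 to 2.44). The brp call ended without repo-positive 6-8 h replicate 2 (1.45, adjusted p = 0.15) and without repo-positive 18-22 h replicate 1 (1.55, adjusted p = 0.087), and the nSyb call without repo-positive 6-8 h replicate 1 (2.67, adjusted p = 0.078). With the total count as the scale nSyb alone passed, while Appl, cpx and para passed too without the low-count filter, with only the groups compared fitted and by DESeq2. The early genes had changes of -0.39 ± 0.32 (elav), 0.70 ± 0.39 (fne) and 0.36 ± 0.42 (futsch), none of which passed by edgeR, at an unadjusted p or by DESeq2.

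The pathway and other-cell lists were counted between the stages as well. In elav-positive cells 6 of 19 channel genes, 3 of 18 vesicle genes, 2 of 12 axonal genes and 1 of 7 RNA-binding genes were higher at 18-22 h by edgeR. Among them were cac (328 and 289.6 CPM at 18-22 h against 56.9 and 111 CPM at 6-8 h) and Syn (143 and 130.2 CPM against 24.4 and 36.4 CPM). In elav-negative cells 5 of 19 channel genes were higher and 1 lower, 5 of 12 axonal genes higher and 2 lower, and 1 of 18 vesicle genes lower, while 0 of 7 RNA-binding genes passed (1 at an unadjusted p under 0.05, and 0 by DESeq2). In repo-positive cells 5 of 19 channel genes were higher, and 0 of the vesicle, axonal and RNA-binding genes passed by edgeR. Unadjusted p was under 0.05 there in 6 of 18 vesicle, 3 of 12 axonal and 1 of 7 RNA-binding genes, and in 2091 of all 11726 rows. DESeq2 called 1, 1 and 0 of the listed genes. In elav-negative cells 3080 of all rows had an unadjusted p under 0.05. Muscle genes were higher at 18-22 h in 5 of 7 cases in elav-positive cells (sums of 702 and 637 CPM at 18-22 h against 109 and 162 CPM at 6-8 h) and in 5 of 7 in repo-positive cells (974 and 724 CPM against 152.9 and 187 CPM). Elav-negative cells had 6 of 7 muscle genes higher and 1 lower, with sums of 1789 and 1384 CPM at 18-22 h against 220.4 and 399 CPM at 6-8 h. Neuroblast genes were lower in 3 of 8 cases in elav-positive, 3 of 8 in elav-negative and 5 of 8 in repo-positive cells. The part of these cells in the stage changes of the 10 genes was not tested.

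The positive fractions were also set against each other. At 18-22 h all 10 genes were higher in elav-positive than in repo-positive cells, where 3.68% of all rows passed in that direction and 2.39% in the other. The log2 fold changes lay between 1.88 ± 0.33 for elav and 2.92 ± 0.61 for Sh, with adjusted p of 0.000263 to 0.0361 (edgeR). The count depended on libraries: without repo-positive replicate 1 only fne and brp passed, and without repo-positive replicate 2 the 5 calls left were elav, fne, futsch, brp and cpx. Without elav-positive replicate 1, nSyb (1.69), Syt1 (2.41) and para (1.77) did not pass, and nSyb did not pass without elav-positive replicate 2 (2.26). Directions were the same in each of these fits.

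At 6-8 h 7 of the 10 were higher in elav-positive than in repo-positive cells, where 2.08% of all rows passed in that direction and 1.82% in the other. The 7 were elav (2.50 ± 0.34), fne (2.87 ± 0.42), Appl (3.21 ± 0.56), nSyb (3.30 ± 0.62), Syt1 (2.83 ± 0.56), brp (2.09 ± 0.36) and cpx (3.14 ± 0.53). The libraries did not overlap for futsch (1.38 ± 0.43, adjusted p = 0.0762, edgeR), para (1.98 ± 0.58, adjusted p = 0.0609) and Sh (2.04 ± 0.60, adjusted p = 0.0643), which did not pass, and these 3 passed without elav-positive replicate 1. Without repo-positive replicate 1, nSyb (2.76) and Syt1 (2.50) did not pass, without elav-positive replicate 2, Syt1 (2.12) did not, and without repo-positive replicate 2, brp (1.84) did not.

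Against pros-positive cells of the same stage, 8 of the 10 were higher in elav-positive cells, where 6.63% of all rows passed in that direction and 3.95% in the other. The exceptions were futsch and para. As the pros libraries were mapped in another directory than the rest, these differences cannot be told apart from a difference in processing. Syt1 differed most, with 34.9 and 80.7 CPM in elav-positive against 6.35 and 1.05 CPM in pros-positive cells (3.96 ± 0.59, adjusted p = 0.000391, edgeR). The early gene elav had 596 and 522 CPM in elav-positive against 196 and 255 CPM in pros-positive cells (1.31 ± 0.32, adjusted p = 0.0125). For futsch the libraries overlapped, 55.1 and 119 CPM in elav-positive and 57.3 and 64.7 CPM in pros-positive cells (0.52 ± 0.42, adjusted p = 0.45), and its sign turned without elav-positive replicate 2 (-0.093). Without that library, with 1 left in its group, Appl had 1.801, nSyb 1.87 and Sh 2.30. The calls of elav (1.47), Appl (2.33) and nSyb (1.71) ended without pros-positive replicate 2, and that of elav without pros-positive replicate 1 (1.23) or elav-positive replicate 1 (1.17). When the 2 groups were fitted alone, 0 of the 8 calls were left, where 5 of all 9048 rows passed as higher and 0 as lower. Fold changes of the 8 genes in that fit were 1.39 (elav) to 4.05 (Syt1), with edgeR adjusted p of 0.085 (Appl) to 0.16 (elav).

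The balance of the classes was summed up for each library as the mean log2(CPM + 1) of the 6 late genes minus that of the 3 early genes, as a description with no test. It was closest to 0 in elav-positive cells at 18-22 h (-0.37 and -0.76), in repo-negative cells at 18-22 h (-0.27 and -0.98) and in repo-positive cells at 18-22 h (-0.54 and -1.01). Among the 6-8 h groups it was -2.65 and -1.73 in elav-positive, -1.94 and -1.78 in elav-negative, -2.81 and -3.90 in pros-positive, -1.60 and -1.78 in pros-negative, -2.48 and -2.22 in repo-positive and -2.41 and -2.25 in repo-negative cells. Elav-negative cells of 18-22 h had -1.10 and -1.61. Every library of 18-22 h thus lay above every library of 6-8 h of the positive fractions. In elav-negative 18-22 h replicate 2 (-1.61) and pros-negative replicate 1 (-1.60) the ranges of the stages overlapped slightly. In elav-positive cells the mean of the late class was 7.41 at 18-22 h and 5.53 at 6-8 h. That of the early class was 7.97 at 18-22 h and 7.72 at 6-8 h. The early mean joined log2 fold changes in both directions, -1.01 for elav, 0.58 for fne and 1.07 for futsch, none of which passed edgeR's test. In pros-positive cells the late class was at 2.98 and the early class at 6.34.

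**Figure D3:**
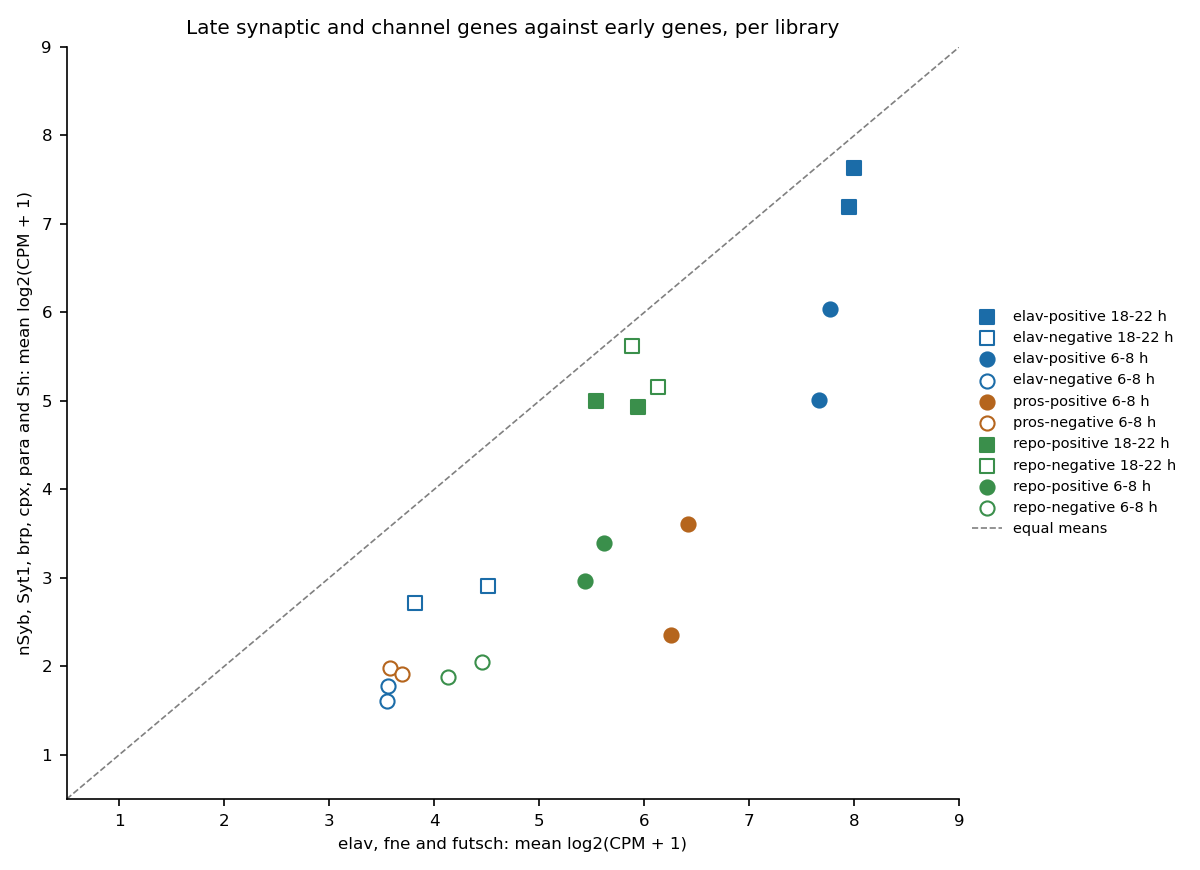
Mean log2(CPM + 1) of the 6 late genes against that of the 3 early genes for each of the 20 libraries. Filled symbols are marker-positive, squares are 18-22 h and circles 6-8 h, and the dashed line marks equal means. All libraries lie below the line, the pros-positive libraries farthest from it (-2.81 and -3.90). The pros libraries were mapped in another directory than the rest.

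Levels of different genes were compared per kilobase of exon. On that scale elav ranked first among the 10 in every group but elav-positive cells of 18-22 h, where fne (32.6 ± 0.54 CPM per kb, SD, n = 2), Appl (28.3 ± 1.2), elav (25.9 ± 0.76) and nSyb (25.2 ± 7.0) led. At 6-8 h in elav-positive cells elav had 52.2 ± 4.9 and fne 21.8 ± 6.2 CPM per kb, and Appl had 12.7 ± 5.2. The share of elav in the summed CPM per kb of the 10 genes was 13.1% in elav-positive cells at 18-22 h and 43.2% in those at 6-8 h, 59.1% in pros-positive cells, and 18.0% in late and 46.8% in early repo-positive cells. The share of nSyb was 12.5% in late and 5.5% in early elav-positive cells, and 16.4% in late and 3.4% in early repo-positive cells, where nSyb was second only to elav at the late stage. Sh was lowest per kb in 8 of the 10 groups and nSyb in the others, elav-negative and repo-negative cells of 6-8 h.

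**Figure D4:**
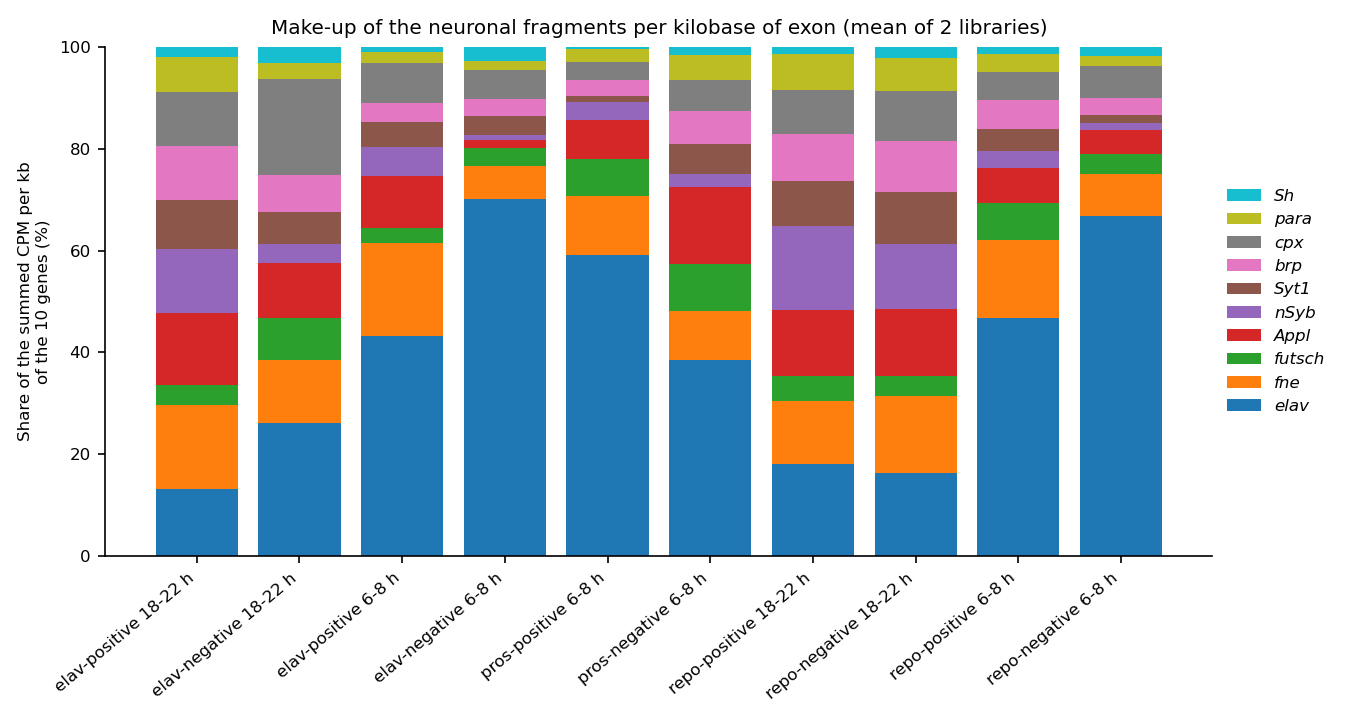
Make-up of the fragments per kilobase of exon: the share of each gene in the summed CPM per kb of the 10 genes, as the mean of 2 libraries in each group. The elav share is 13.1% in late and 43.2% in early elav-positive cells, and largest in elav-negative cells at 6-8 h (70.1%).

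The authors' deposited tables of gene and miRNA pairs give a log2 fold change for genes, whose measurement is not described in their headers, and list a gene only where it changed opposite to a paired miRNA. Their direction, not stated in the headers, was inferred by comparing the sign of each miRNA with its change in these libraries, taking the group named second as the numerator. The signs matched in 55 of 56 miRNAs for the elav sort at 6-8 h and in 62 of 65 at 18-22 h. Wherever one of the 10 genes was listed for a comparison made here, its change in the authors' deposited table had the sign of the fragment change. In the elav sort at 18-22 h all 10 were listed, with a median of 4.79 in the authors' deposited table and 4.72 for the fragments. At 6-8 h all 10 were listed too, each with a larger change in the authors' deposited table (median 6.49) than in the fragments (4.59). For brp at 6-8 h the authors' deposited table gave 6.25 and the fragments 4.34.

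In the pros sort the authors' deposited table listed 9 of the 10, all but nSyb, with a median of 2.74 for the genes and 1.63 for the fragments. It gave 1.799 for Syt1 and 3.30 for para, whose fragment changes were 0.18 and 1.62 and did not pass. In the repo sort at 6-8 h the authors' deposited table listed 7 genes, all but elav, fne and Sh, with changes of 1.96 to 2.55. For the repo sort at 18-22 h the authors' deposited table listed 0 of the 10. For elav-positive cells at 18-22 h over 6-8 h it listed futsch, nSyb, Syt1, brp, cpx and Sh, with changes of 1.09 to 2.13 in the authors' deposited table, and for repo-positive cells Appl, nSyb, Syt1, brp, cpx and Sh, with changes of 1.39 to 2.96. For Sh in repo-positive cells the authors' deposited table gave 2.96, and the fragment change was 0.87 ± 0.60. As only genes that changed are listed, this is no count of how often both kinds of library give the same sign.

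**Figure D5:**
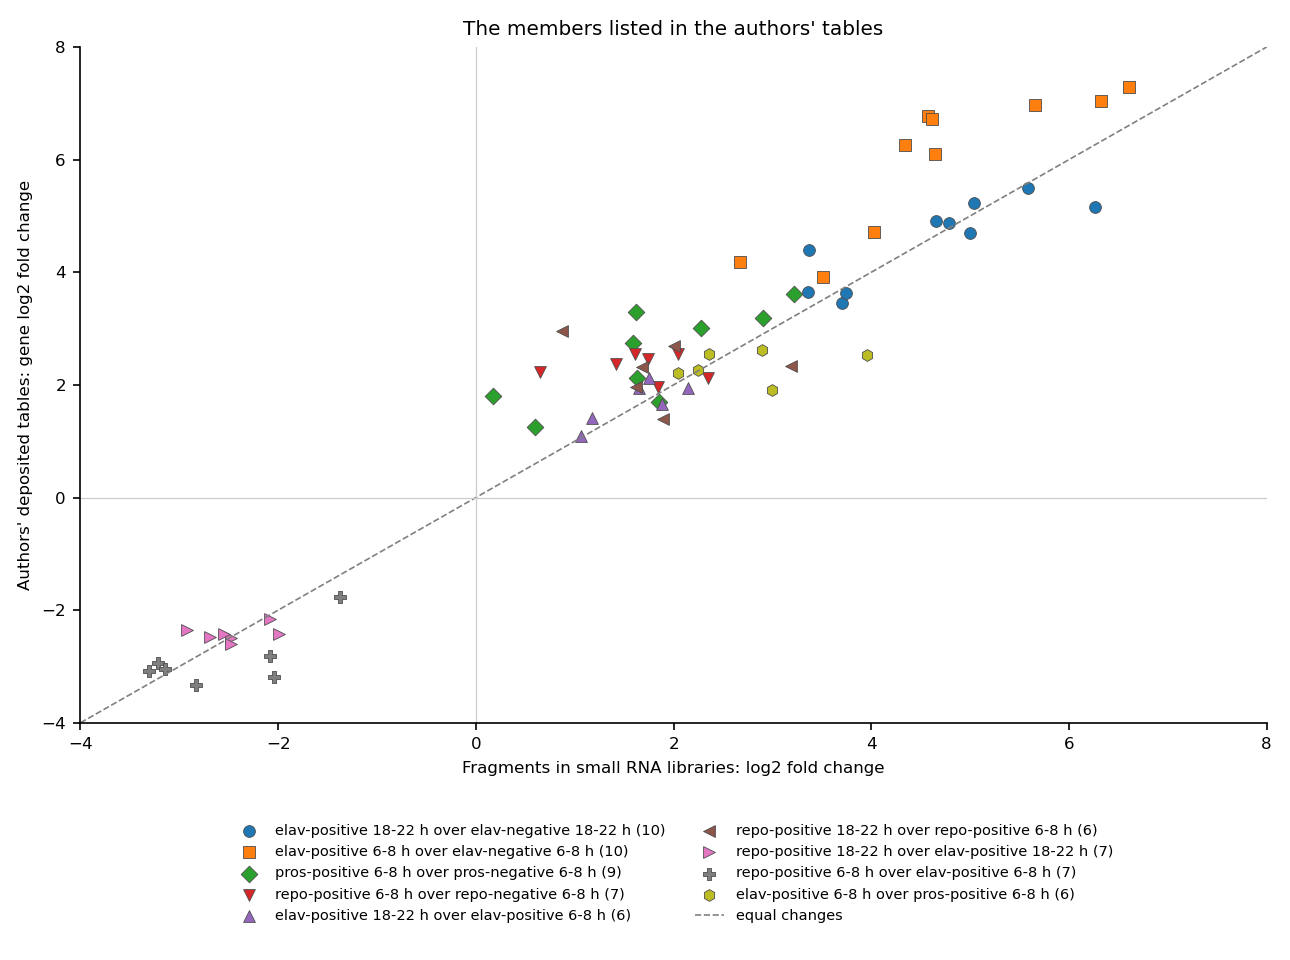
Log2 fold change of the listed genes in the authors' deposited tables against the change of their fragments, by comparison, with second group over first on both axes. The dashed line marks equal changes. The 10 genes of the elav sort at 6-8 h all lie above it.

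Over the 20 libraries, log2(CPM + 1) of the late genes ran closely together, as a description of libraries that share stage, gate and scaling. The 15 pairs of late genes had Pearson correlations of 0.846 to 0.971 (median 0.944), the 18 pairs of an early with a late gene 0.528 to 0.937 (median 0.841), and the 3 pairs of early genes 0.751 to 0.918 (median 0.821). Among 9588 other genes with a mean of at least 1 CPM, those most like elav were Antp (r = 0.954), Oli (0.941), hiw (0.938), scrt (0.931) and a row with no symbol in the tables used, FBgn0262735 (0.922). Antp encodes a Hox protein, Oli a basic helix-loop-helix factor, hiw a ubiquitin ligase of synapses and scrt a zinc finger factor of neural precursors. The genes most like nSyb were Glut1 (0.967), CG11155 (0.966), cac (0.965), Syn (0.963) and chrb (0.962), of which Glut1 encodes a glucose transporter, cac a calcium channel and Syn synapsin. Antp had a correlation of 0.596 with nSyb, and Glut1 of 0.626 with elav.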

How the data were processed

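Small RNA was measured in 20 libraries (single 51 bp reads). The deposited values are expected counts: per the file headers, featureCounts 1.5.1 split multi-mapped reads among their places and counted stranded reads on Ensembl release 85 exons, and the submitters' processing notes name Bowtie 1.1.2, SAMtools 1.8, DESeq2 and the builds BDGP6 and dm6. Of the 17559 rows, 237 hairpins and 59 rows sharing bases with them were left out. Of all values 78.1% were not whole, and nearly all values of the 10 genes were not, so each holds shares of multi-mapped reads. para was matched by FBgn0264255 through the authors' tables. The authors also deposited 11 tables with log2 fold changes and p-values, used as given.

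Estimated counts were rounded and fitted with edgeR 4.0.16 (quasi-likelihood, all 10 groups, TMM, filterByExpr, 11726 rows tested, common coefficient of variation 0.511, 10 residual degrees of freedom) and Benjamini-Hochberg correction at 0.05 per comparison. DESeq2 1.42.0 and 7 other settings were alternatives. Leaving out a library leaves 1 in its group, so a call that ends there does not show that the library carried it. The code was tested on simulated data. Errors of fold changes are standard errors, taken as the log2 fold change over the root of its F statistic, and errors of levels are SD of 2 libraries. The standard errors hold the spread between the libraries of a group as well as counting error. The members and lists were chosen with earlier results of these data known. Of 103 list genes 100 matched (not Imp, wupA and btl). Genes named from lists were up to 3 per list and comparison, those past the correction with the largest change, no overlap of libraries and at least 1 CPM in the higher group.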

Additional observations from a re-analysis of the deposited data

How the results depend on the processing

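Depth limits the low genes most: nSyb rests on under 10 counts in 3 of the negative groups. All 10 calls of the elav sort of 18-22 h were made under every setting and with each library left out, and 8 to 10 of those at 6-8 h. The 0 calls of the repo sort at 18-22 h and of the late minus early elav contrast were 0 throughout. No cause of the changes below was tested. Counts below are of genes called higher, or lower in the repo contrast, late minus early. The one gene also called the other way was elav, lower late over early in elav-positive cells on the total scale and by DESeq2, and in elav-negative cells without 18-22 h replicate 2.

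With the total count as the scale, 3 of the 10 genes were called in the pros sort, 2 in the repo sort at 6-8 h, and, late over early, 0 higher and 1 lower (elav) in elav-positive, 2 in elav-negative and 1 in repo-positive cells. That scale moved the median change of all rows by 0.68 in the elav sort at 6-8 h, 0.37 in that at 18-22 h and -0.49 in elav-positive cells late over early. The share of all calls that were higher was then 90.01% in the elav sort at 6-8 h (59.9% with TMM), 80.8% at 18-22 h (62.7%), 32.7% in the pros sort (48.8%), 84.0% in the repo sort at 6-8 h (70.8%), 16.3% in elav-positive (60.7%) and 28.0% in repo-positive cells late over early (217 higher and 217 lower rows with TMM), 72.5% in elav-positive against repo-positive cells at 6-8 h (53.4%) and 9.82% in the late minus early elav contrast (30.6%). Without the low-count filter the counts were 8 (pros sort), 5 (elav-positive late over early), 6 (repo-positive late over early) and 2 (repo contrast, late minus early). With only the compared groups fitted they were 1 (pros sort), 2 (repo sort at 6-8 h), 1, 3 and 6 (elav-positive, elav-negative and repo-positive, late over early), 0 (elav-positive against pros-positive) and 2 (repo contrast). In those fits 8 of all 9184 rows passed as higher in the pros sort, and 5 of all 9048 in elav-positive against pros-positive cells. Without both second elav libraries of 6-8 h they were 1 (elav-negative late over early), 5 (repo-positive late over early), 5 (elav-positive against pros-positive) and 1 (repo contrast). DESeq2 called 5 higher and 1 lower (elav) in elav-positive late over early, 6 higher in repo-positive late over early and 3 lower in the repo contrast.

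With 1 library left out at a time, the calls ranged from 3 to 5 in the pros sort, 0 to 2 in the repo sort at 6-8 h, 1 to 2, 0 to 2 and 1 to 2 higher late over early in elav-positive, elav-negative and repo-positive cells, 5 to 10 and 2 to 9 in elav-positive against repo-positive cells at 6-8 h and 18-22 h, and 5 to 8 in elav-positive against pros-positive cells.

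Signs that turned were those of small changes. In the pros sort Syt1 was -0.10 on the total scale, -0.22 with the replicate block and -1.77 to 0.96 with a library left out, and Sh -1.59 to 1.42. In the repo sort at 6-8 h cpx ranged from -0.037 to 2.01 and Sh from -0.036 to 1.41. At 18-22 h futsch was 0.060 on the total scale, 0.014 with only these groups and -0.38 to 0.19 with a library left out, elav -0.41 to 0.047, nSyb -0.054 to 0.085 and para -0.71 to 0.43. In elav-positive against pros-positive cells futsch was -0.088 without both second libraries and -0.093 to 0.93 with a library left out. In the late minus early elav contrast futsch (0.19) and nSyb (0.15) turned without both second libraries, and with a library left out futsch ranged from -1.08 to 0.039, nSyb from -0.40 to 0.50 and elav from -0.54 to 0.42.

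The late minus early class difference moved by more than 1 SD in 4 groups of 6-8 h. With Appl among the early genes it was -1.78 (repo-positive), -1.73 (repo-negative), -1.15 (elav-negative) and -1.46 (pros-negative). With log2(CPM + 0.25) it was -2.66, -2.22 and -1.99 in the 3 negative groups, repo, elav and pros, and with the protein-coding library -2.74, -2.32 and -2.08.

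Replicate numbers are shared between fractions. The deviations of same-numbered libraries correlated at 0.214 and 0.117 (elav sort at 6-8 h and 18-22 h), 0.0214 (pros) and 0.0522 and 0.109 (repo at 6-8 h and 18-22 h), 3 of the 5 over 0.1. Both second libraries of the elav sort at 6-8 h also had the lowest miRNA counts. No label says that a number marks a shared collection, so whether the numbers pair the libraries is not settled, and the block was kept as an alternative. With the replicate number as a block, 2 of the 10 genes were called as lower in the repo contrast (fne, adjusted p = 0.021, and brp, adjusted p = 0.038, edgeR), Syt1 lost its call in repo-positive cells late over early (2.01, adjusted p = 0.051, edgeR), and no other call changed.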
